A study of Mus musculus with 4 samples.

Results

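A rare population of nuclei with RNA of Zic1, Zic4, Prkcd and Ano2 was followed in 4 single-nucleus RNA libraries of mouse cortex and hippocampus. Members were nuclei with more than 600 genes, less than 5% mitochondrial counts, at least 3 unique molecular identifiers (UMIs, 1 per captured RNA molecule) of the synaptic genes Snap25 and Syt1 together, and at least 1 UMI of 3 or more of the 6 genes Zic1, Zic4, Prkcd, Ano2, Col6a3 and Prdm16. The libraries held 209 and 8 members in Sel1L-flox replicates 1 and 2, and 56 and 48 members in Sel1L-SynCre replicates 1 and 2. That makes 321 members of 26795 neuron-gated nuclei, or 1.20%, and of 36094 nuclei kept in all. The rule had been written for neurons of a thalamus-like type. The data went against that label for most members, since 238 of the 321 (74.1%) had more UMIs of the GABA-synthesizing enzymes Gad1 and Gad2 than of the vesicular glutamate transporters Slc17a6 and Slc17a7. They are therefore called Zic1/Zic4 nuclei here.

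Zic proteins are zinc finger transcription factors that pattern the dorsal neural tube, the cerebellum, the septum and parts of the thalamus, and Zic genes lie in head-to-head pairs in the genome. Prkcd encodes a protein kinase C isoform and Ano2 a calcium-activated chloride channel, and both are used as markers of neurons in several brain regions. Glutamatergic relay neurons of the thalamus use Slc17a6 for transmitter loading and carry the Wnt pathway factors Tcf7l2 and Lef1, whereas GABAergic neurons of the septum, the striatum and the olfactory system use Gad1, Gad2 and Slc32a1. Sel1l encodes the adaptor of the HRD1 ubiquitin ligase in endoplasmic reticulum (ER) associated degradation, ERAD, which removes misfolded proteins from the ER. Loss of ERAD function is known to induce chaperones of the unfolded protein response.

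All mice carried 2 floxed Sel1l alleles on a C57BL/6J background and were 5 weeks old. Sel1L-flox mice (labels WT1 and WT2, genotype Sel1L flox/flox) served as controls, and Sel1L-SynCre mice (labels KO1 and KO2, genotype Sel1L Syn-Cre) carried in addition a Cre transgene driven by the Synapsin I promoter, which is active in neurons. Each library came from 1 mouse, and the nuclei were sorted on a DNA dye after tissue was taken from sagittal slices. The libraries held 12599, 8481, 8173 and 7366 barcodes with 122870443, 76617523, 75227337 and 74082610 UMIs, in the order Sel1L-flox 1, Sel1L-flox 2, Sel1L-SynCre 1 and Sel1L-SynCre 2, an order kept for every set of 4 values that follows. The members in them held 3050524, 101479, 773388 and 886808 UMIs, so values of Sel1L-flox 2 rest on few nuclei. Between 10 and 34 barcodes were shared by any pair of libraries, and none of these was a member in both.

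The Cre transcript went against 1 label. Over all barcodes, the added Cre feature had 491 UMIs in the library labelled Sel1L-flox 1, 0 in Sel1L-flox 2, 262 in Sel1L-SynCre 1 and 260 in Sel1L-SynCre 2. Among other neurons, meaning neuron-gated nuclei that were not members, Cre stood at 4.14, 0, 3.60 and 3.54 CPM (UMIs of a gene per 1000000 UMIs of the same nuclei), so the library labelled Sel1L-flox 1 was at least as high as both Sel1L-SynCre libraries. Derl3, an ERAD factor of the unfolded protein response, stood at 0.564, 0.518, 17.5 and 10.7 CPM in the same nuclei, which separated the libraries by their labels. Sel1l RNA gave no check of the deletion, since where its counted reads lie relative to the floxed stretch is not given in the sources used here. It stood higher in other neurons of both Sel1L-SynCre libraries (155 and 130 CPM) than in those labelled Sel1L-flox (95.5 and 89.3). The library labelled Sel1L-flox 1 held 65.1% of all members, so results are given with and without it where that changes them.

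Zic1/Zic4 nuclei made up 2.37% of neuron-gated nuclei in the library labelled Sel1L-flox 1 (95% Wilson interval 2.07 to 2.70, n = 8834 nuclei), 0.133% in Sel1L-flox 2 (0.0675 to 0.263, n = 6009), 0.934% in Sel1L-SynCre 1 (0.720 to 1.21, n = 5998) and 0.806% in Sel1L-SynCre 2 (0.609 to 1.07, n = 5954). The control libraries stood at both ends of the range and enclosed the Sel1L-SynCre libraries. Mean shares were 1.25% ± 1.58 (SD, n = 2 mice) for Sel1L-flox and 0.870% ± 0.0901 (SD, n = 2) for Sel1L-SynCre, a difference of −0.380 percentage points (two-sided exact permutation test, p = 1, where 2 against 2 libraries cannot go below 0.3333). Without the library labelled Sel1L-flox 1 the difference became 0.737 percentage points in the other direction. The intervals cover counting error only, and how much of each region entered a slice cannot be told apart from the number of cells in the animal.

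**Figure D1:**
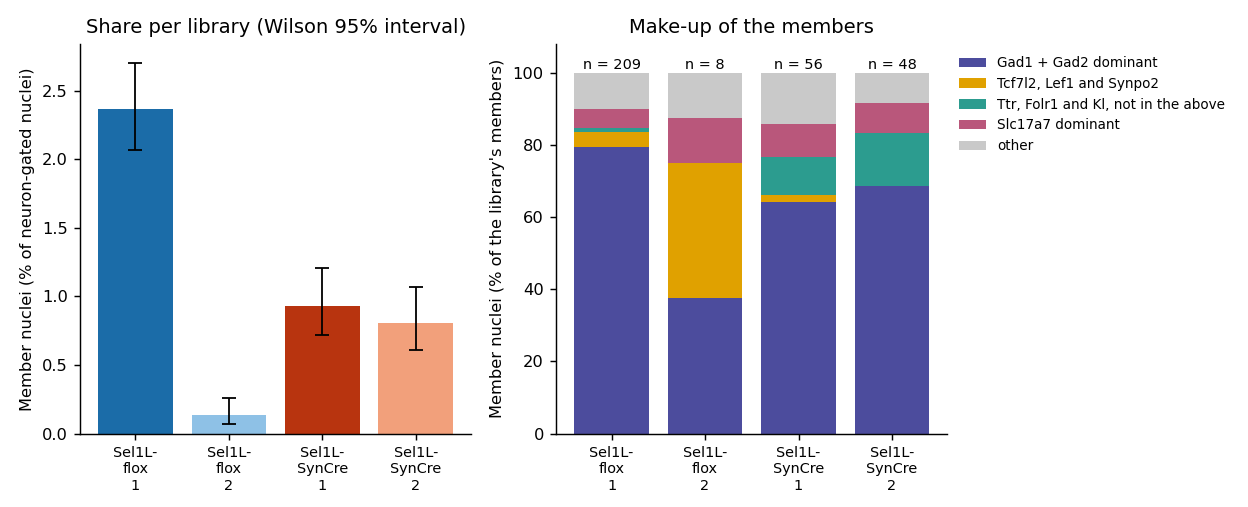
The left panel plots the share of Zic1/Zic4 nuclei among neuron-gated nuclei (percent, bars with 95% Wilson intervals) in the 4 libraries, and the right panel the make-up of each library's members by kind (percent of members). The library labelled Sel1L-flox 1 stands highest at 2.37% and Sel1L-flox 2 lowest at 0.133%, and the Gad-dominant kind is the largest in every library but Sel1L-flox 2, where it ties with the Tcf7l2 kind at 3 of 8 nuclei.

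The 6 genes of the rule were on together in a minority of the members. By construction each member had 3 or more of them, and 113 nuclei had exactly 3, 74 had 4, 83 had 5 and 51 had all 6. Just outside the rule lay 248 neuron-gated nuclei with 2 of the genes, of which 27.8% were Gad-dominant, against 51.3% of those with 3. Another 65 nuclei had 3 or more of the genes but too few Snap25 and Syt1 UMIs. Prdm16, a zinc finger transcription factor, was found in 279 members (86.9%), Zic1 in 273 (85.0%), Prkcd in 246 (76.6%), Zic4 in 237 (73.8%), Ano2 in 198 (61.7%) and Col6a3, a collagen VI chain, in 123 (38.3%). As a background of free RNA, oligodendrocyte-marker nuclei (n = 3225, median 3192 UMIs against 12085 in members) had a UMI of these genes in 0.0310% (Ano2) to 1.05% (Prkcd) of nuclei. Microglia-marker nuclei had a Prkcd UMI in 36.4% (746 of 2052, median 1878 UMIs). The members were chosen by these UMIs, so the shares are given as a description.

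The rule genes stood far above other neurons in the members of every library. Zic1 stood at 147, 168, 204 and 139 CPM in members, against 1.43 over all other neurons. Zic4 stood at 133, 59.1, 168 and 134, against 0.856. Prkcd stood at 142, 246, 98.3 and 93.6, against 2.47. Ano2 stood at 196, 227, 244 and 174, and Prdm16 at 251, 138, 265 and 231. Col6a3 stood at 65.2, 108, 46.6 and 83.5, the lowest of the 6 in every library but Sel1L-flox 2, where Zic4 was lower. Comparisons between genes are of UMIs of 3′ ends and are not scaled by gene length, because each RNA gives 1 tagged end.

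Zic1 and Zic4 lie on opposite strands of chromosome 9 and overlap in GENCODE vM21 (GRCm38, chr9:91358058-91365810 on the minus strand and chr9:91362413-91389348 on the plus strand). Both had a UMI in 201 of the 321 members, 72 had Zic1 alone and 36 had Zic4 alone, while among 26474 other neurons 47 had both, 269 had Zic1 alone and 150 had Zic4 alone. The rule takes nuclei that have several of its genes, so these counts are a description. Since use of strand in the counting is not stated in the sources used here, reads in the stretch that both genes cover cannot be told apart. The next gene downstream of Zic4, 15125 bases on, is the long non-coding RNA Gm29478, which stood at 102, 266, 102 and 69.9 CPM in members and at 0.974 in other neurons, although no rule named it. The second Zic pair, Zic2 and Zic5 on chromosome 14, 9757 bases apart, followed the same pattern at lower levels: Zic2 stood at 28.2, 9.85, 31.0 and 44.0 CPM in members (0.622 in other neurons), and Zic5 at 27.2, 39.4, 22.0 and 23.7 (0.447 in other neurons).

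The promoters of Zic1 and Zic4 are shown because both genes belong to the rule. The RefSeq start of Zic4 lies inside the span given above, on the far side of Zic1, so the 2 annotations differ on where Zic4 begins, and by the RefSeq starts the genes do not overlap. The sequences are the 250 bases before the RefSeq gene start (GRCm38.p6), with the GC box GGGCGG and the CCAAT box, searched on both strands, in capitals. Zic1 (chr9:91365769-91366018, minus strand) is GC-rich, with 66.0% G and C and 27 CpG, and Zic4 (chr9:91368722-91368971, plus strand) has 44.4% and 4 CpG, beside medians of 52.4% and 6 CpG over 32851 promoters of the same length.
Zic1: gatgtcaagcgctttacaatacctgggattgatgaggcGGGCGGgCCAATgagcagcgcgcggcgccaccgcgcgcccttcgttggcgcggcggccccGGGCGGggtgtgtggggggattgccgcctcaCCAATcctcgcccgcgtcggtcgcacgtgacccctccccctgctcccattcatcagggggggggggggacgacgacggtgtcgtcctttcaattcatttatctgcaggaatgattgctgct
Zic4: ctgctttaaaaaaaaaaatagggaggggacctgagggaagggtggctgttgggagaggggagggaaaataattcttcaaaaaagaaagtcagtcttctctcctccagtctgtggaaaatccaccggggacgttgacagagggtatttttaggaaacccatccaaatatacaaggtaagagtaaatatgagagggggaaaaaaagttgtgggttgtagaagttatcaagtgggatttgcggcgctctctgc
The Zic1 window holds 2 GC boxes and 2 CCAAT boxes and the Zic4 window holds neither. Among all promoters, 32.7% hold a GC box and 33.9% a CCAAT box, so these matches are common and describe the windows only.

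Beyond the rule, genes were ranked by the difference in log2(CPM + 1) between all members together and other neurons. The leading gene was Ano1, the calcium-activated chloride channel most related to Ano2, at 252, 207, 136 and 140 CPM in members and 1.33 in other neurons, a ratio of 160. Clic6, an intracellular chloride channel protein that is also abundant in choroid plexus, stood at 50.8, 39.4, 78.9 and 51.9 against 0.691. Both were higher in members than in other neurons in each of the 4 libraries. Among transcription factors, Zfhx3 stood at 558, 374.5, 416 and 446 against 22.9, and Zfp521 at 227, 118, 217 and 245 against 10.1. Igfbpl1, a secreted protein known from newborn neurons, stood at 84.2, 98.5, 71.1 and 69.9 against 2.73. A group of 3 neighbours on chromosome 8 was also among the 15 leading genes, namely the non-coding Gm45680 and B020031H02Rik, which are 41 bases apart, and Sox1ot, which overlaps the neural factor Sox1 and lies 385554 bases further on. Sox1ot stood at 230, 177, 242 and 245 against 11.8. Mob3b, Nxn and Col9a3 were also among the 15. Some of the genes were not shared by all kinds of members described below. Ano1 stood at 268 CPM in the Gad-dominant members, at 4.46 in the 13 nuclei of the Tcf7l2 kind and at 13.7 in the 15 of the Ttr kind. Others were above other neurons in each of these kinds, in the same order: Zfhx3 at 582, 695 and 298 CPM, Gm29478 at 112, 111 and 37.7, and Zic2 at 33.6, 31.2 and 47.95. Clic6, Igfbpl1 and B020031H02Rik were at 0 in the Tcf7l2 kind. These differences follow from how the nuclei were chosen and carry no test.

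**Figure D2:**
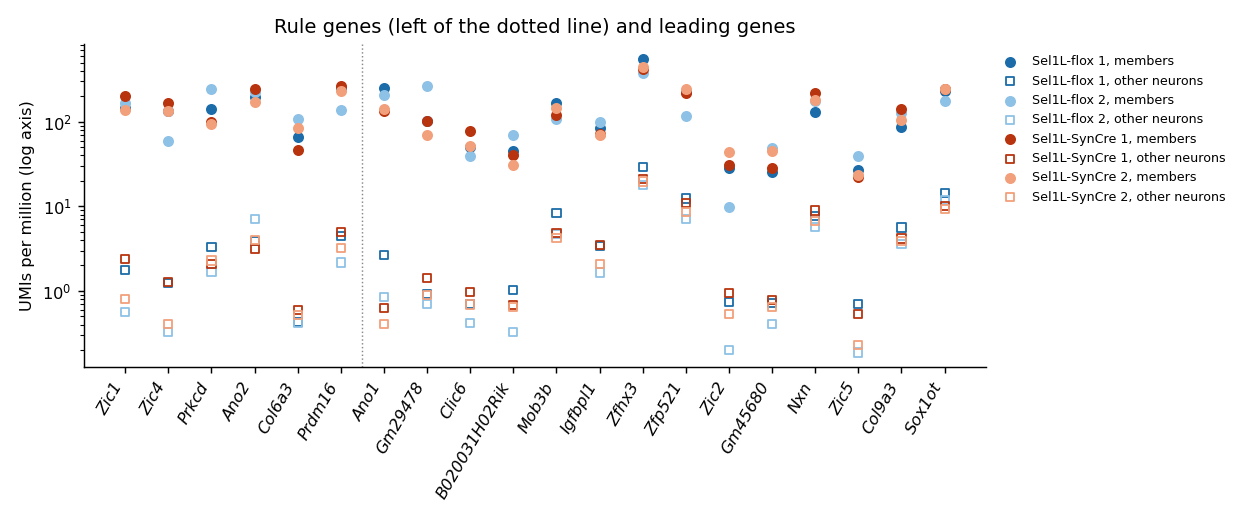
Each point is the level of a gene in 1 library (CPM, log axis), with filled circles for Zic1/Zic4 nuclei and open squares for other neurons; rule genes are left of the dotted line and 14 of the 15 leading genes are to its right. Circles lie above squares for every gene shown in all 4 libraries, and Ano1 has the largest ratio among the genes outside the rule, at 160.

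The members were mostly GABAergic by their markers and not the glutamatergic neurons of the thalamus. Gad-dominant nuclei were 166 of 209, 3 of 8, 36 of 56 and 33 of 48 members, and 13.4% of other neurons. Their share went from 51.3% of members with 3 rule genes to 81.1% with 4, 85.5% with 5 and 96.1% with all 6. Slc17a7, the glutamate transporter of cortex and hippocampus, dominated in 31 members (9.66%), and Slc17a6, that of the thalamus, in 8 (2.49%), with 6, 1, 1 and 0 per library. In the remaining 44 members no transporter or enzyme was ahead. Gbx2, a homeobox factor of the developing thalamus, had 0 UMIs in all members, which allows up to 3 UMIs of 4812199.

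Gad-dominant members were unlike the other Gad-dominant neurons of the same libraries. They held Meis2, a homeobox factor of striatal, septal and olfactory GABAergic lineages, at 681, 849, 661 and 601 CPM, against 89.5, 39.9, 84.8 and 82.3 in the other Gad-dominant neurons. Adarb2, an RNA-editing enzyme homologue that marks cortical interneurons of caudal origin, stood at 147, 0, 44.8 and 22.2, against 3619, 3562, 4460 and 3139. Of 6 genes listed for septal and cholinergic neurons, 5 were above other neurons in these nuclei, and their summed level was 722, 534, 712 and 603 CPM against 142, 128.5, 139.5 and 136 in other neurons. That sum was almost all Trpc4, a cation channel subunit, at 689 CPM, and Slc18a3, the vesicular acetylcholine transporter, was at 0. No name for a region was drawn from this.

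A few members did carry RNA of thalamic genes. Tcf7l2, Lef1 and Synpo2 each had a UMI in 13 members without Gad dominance, called the Tcf7l2 kind, 9, 3, 1 and 0 per library. Of these, 11 had a Slc17a6 UMI, 12 had no Prdm16 UMI, 12 had no Ano2 UMI and none had Col6a3, while Zic1, Zic4 and Prkcd had a UMI in 13, 12 and 13 of them. In the libraries labelled Sel1L-flox they held Ntng1, an axon guidance protein of thalamocortical neurons, at 4040 and 5737 CPM and Adarb2 at 3221 and 4023. The single nucleus in Sel1L-SynCre 1 had 0 UMIs of Slc17a6, Ntng1 and Adarb2, but 24 UMIs of the endothelial receptor Flt1 and 21 of the pericyte gene Vtn. Doublet calls marked 6 of the 13. Among all neuron-gated nuclei, 53 had UMIs of all 3 genes (27, 14, 3 and 9), and 14 of these were members. With Slc17a6 and without Gad UMIs the numbers were 17, 10, 0 and 3.

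The remaining kinds were smaller. In 18 members (2, 0, 8 and 8) at least 5 UMIs of Ttr, Folr1 and Kl were found, genes of choroid plexus epithelium, which makes cerebrospinal fluid. Of the 18, 2 were Gad-dominant and 1 was of the Tcf7l2 kind, and the other 15 (2, 0, 6 and 7) are called the Ttr kind. Zic1 had a UMI in 13 of the 15, Prdm16 in 14, Zic4 in 11 and Prkcd in 6. Of these 15, 14 had 3 rule genes and 1 had more. They made up 0.957%, 0%, 10.7% and 14.6% of a library's members, which parted the Sel1L-SynCre libraries from those labelled Sel1L-flox. Over all kept nuclei, at least 5 UMIs of the 3 genes were found in 70, 16, 119 and 41 nuclei, so the libraries overlapped there. A further 21 members were Slc17a7-dominant, 14 of them with a doublet call, and 34 belonged to none of these kinds. Doublet calls fell on 58 of the 321 members (18.1%) and on 9.44% of other neurons. The kinds were defined after the data were seen and carry no test.

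**Figure D3:**
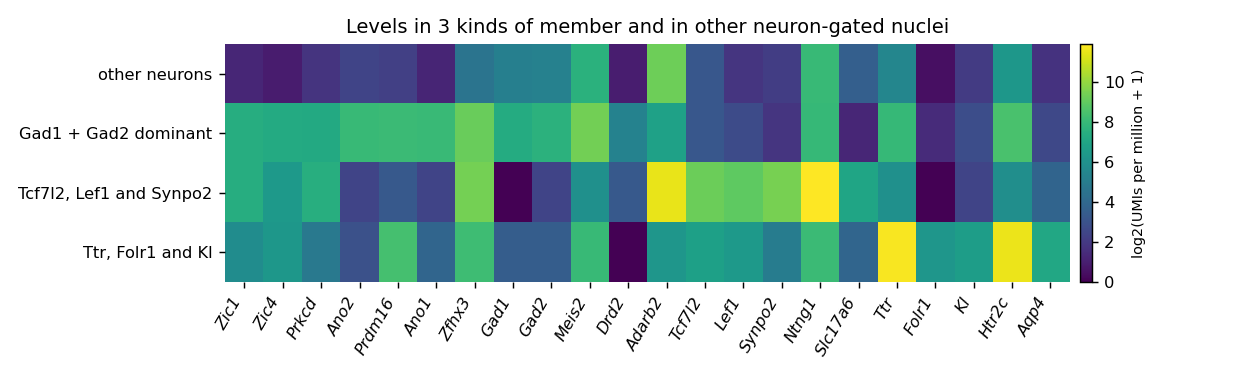
Colour gives the level over all libraries, as log2(CPM + 1), of marker genes (columns) in 3 kinds of member and in other neurons (rows). Gad1, Gad2 and Meis2 are high in the Gad-dominant kind, Tcf7l2, Lef1, Synpo2 and Ntng1 in the Tcf7l2 kind, and Ttr reaches 3575 CPM in the Ttr kind.

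Clustered without integration of the libraries and without the 6 rule genes, 252 members (78.5%) fell in 1 of 38 clusters and the others in 16 more. That cluster held 838 nuclei, of which 30.1% were members, and it mixed the kinds, with 214 of the 238 Gad-dominant members and 10 of the 13 of the Tcf7l2 kind. Its nuclei came from all libraries (363, 145, 208 and 122), but members were 47.7%, 4.14%, 18.8% and 27.9% of them, so Sel1L-flox 2 had nuclei of this cluster that mostly failed the rule.

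In the genotype comparison, summed counts of member nuclei were fitted with edgeR's quasi-likelihood test (Benjamini-Hochberg adjustment over 9852 genes, threshold 0.05), and 16 genes were higher and 1 lower in Sel1L-SynCre, which is 0.173% of the genes tested (0.162% higher and 0.0102% lower). The median log2 fold change of all genes was 0.02. By leaving out 1 library at a time, 10 genes passed without the library labelled Sel1L-flox 1, 90 without Sel1L-flox 2, and 0 without either Sel1L-SynCre library, where 564 and 346 genes had an unadjusted p under 0.05 in edgeR. None of the 16 higher genes passed without the library labelled Sel1L-flox 1, where Ttr had the lowest adjusted p of them (0.0615 in edgeR), followed by Enpp2 (0.0725) and Ptgds (0.112), while the 1 lower gene did (0.0135). With the doublet calls left out, 0 genes passed in edgeR (334 with an unadjusted p under 0.05), and 0 passed with the replicate number as a block (669), which is here also a block for sex. The lower gene was Adarb2. None of the 17 passed in the other neurons, where 14 of 20739 genes (0.0675%) passed.

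Ttr, the thyroxine carrier secreted by choroid plexus, rose from 78.0 and 29.6 CPM to 1275 and 823 (3.92 ± 0.39 as log2 fold change and SE, with an adjusted p of 0.0263 in edgeR). Both Sel1L-SynCre libraries lay far above both others. However, single nuclei held much of this RNA: the highest member nucleus had 392 of 986 Ttr UMIs in Sel1L-SynCre 1 and 342 of 730 in Sel1L-SynCre 2. Of all Ttr UMIs in members, 53.3% lay in the 15 nuclei of the Ttr kind and 91.5% in the 18 nuclei with at least 5 UMIs of Ttr, Folr1 and Kl. In Gad-dominant members Ttr was also past the threshold (4.15 ± 0.28, edgeR adjusted p = 0.0369), with 39.9, 48.5, 805 and 673 CPM. There 1 nucleus in each Sel1L-SynCre library held 94.9% and 94.0% of the Ttr UMIs, and without the highest nucleus of each library the levels were 39.0, 39.8, 41.9 and 43.5. The median Gad-dominant member of the library labelled Sel1L-flox 1 and of both Sel1L-SynCre libraries had 0 Ttr UMIs.

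Kl, the anti-ageing co-receptor klotho of choroid plexus, rose from 5 and 0 UMIs to 25 and 27 (4.16 ± 0.55, edgeR adjusted p = 0.0419). Enpp2, the lysophosphatidic acid enzyme autotaxin, rose from 95.1 and 39.4 CPM to 559 and 433 (2.56 ± 0.34, edgeR adjusted p = 0.0419). With 4 rule genes required the rise of Enpp2 was lost, and its fitted change had a very small negative value, given further below. Tmem72, a membrane protein of choroid plexus, had 1, 0, 34 and 24 UMIs and Slc6a13, a GABA and taurine transporter of meninges, 2, 0, 26 and 24, so their fitted changes rest on 1 and 2 control UMIs. Ptgds, the prostaglandin D synthase of meninges and glia, rose from 54.4 and 9.85 to 471 and 817 CPM (3.75 ± 0.46, edgeR adjusted p = 0.0419). Groups did not overlap for any of these genes. However, Kl, Tmem72 and Slc6a13 passed the count filter only through their Sel1L-SynCre counts, so for them the lack of overlap adds nothing.

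Slc39a12, a zinc transporter on the astrocyte list, rose from 6.56 and 9.85 to 63.4 and 81.2 CPM (3.32 ± 0.36, edgeR adjusted p = 0.0263). Glul, the glutamine synthetase of astrocytes, which is not on that list, rose from 16.1 and 9.85 to 98.3 and 162 (3.002 ± 0.376, edgeR adjusted p = 0.0419). Id3, Etnppl, Htra1, Tns1, Col8a1, Ccnd3 and the non-coding Gm14964, which is antisense to Nrxn2, rose too, with log2 fold changes of 2.51 (Ccnd3) to 4.25 (Tns1). Tns1 stood at 1.64 and 0 CPM in the libraries labelled Sel1L-flox, and Id3, Etnppl and Col8a1 were at 0 in Sel1L-flox 2. The fitted changes of these genes rest on few control UMIs. The 15 nuclei of the Ttr kind, 4.67% of the members, held between 21.0% (Ccnd3) and 60.5% (Id3) of the member UMIs of the 16 genes. With the 3 such nuclei of other kinds added, the shares ran from 33.3% (Ccnd3) to 100% (Tmem72).

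Lists of markers of other cell types held 4 of the 16 genes, Slc39a12, Ttr, Kl and Slc6a13. Of 8 astrocyte genes tested, 1 passed and 5 were higher without overlap, where 21.2% of all genes were, with a median log2 fold change of 2.72. Their summed level in members was 383, 1291, 1153 and 1872 CPM, so Sel1L-flox 2 was above Sel1L-SynCre 1, and Slc1a2 was the most abundant gene at 439. All 3 of the 6 choroid plexus and ependyma genes that were tested were higher without overlap (2 called, median 3.92). All 3 of 6 endothelial genes tested were higher without overlap and none was called. Of 10 fibroblast and pericyte genes 5 were tested, 4 were higher without overlap and 1, Slc6a13, was called (median 2.53). In members the 6 endothelial genes summed to 3.61, 9.85, 153 and 101.5 CPM. The endothelial genes, Kl and Slc6a13 passed the count filter through their Sel1L-SynCre counts. The same holds for Slc39a12, Tmem72, Id3, Etnppl, Htra1, Tns1, Col8a1, Ccnd3 and Gm14964. Their lack of overlap adds nothing to that selection. The counts without overlap of the astrocyte, choroid plexus and fibroblast lists carry this selection at least in part. Oligodendrocyte genes, with 4 of 7 tested and none called, had a median of −0.61. The part of these cell types in the genotype difference was not tested. Among the 252 members of the main cluster, 0 of 7743 genes passed in edgeR (239 with an unadjusted p under 0.05), and without Sel1L-flox 2, a setting chosen after the data were seen, 23 passed, 2 of them higher and 21 lower.

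Adarb2 fell by 4.45 ± 0.59 (log2, with an adjusted p of 0.0419 in edgeR), from 477 and 1705 CPM to 60.8 and 37.2. The highest nucleus held 518 of 1455 UMIs in the library labelled Sel1L-flox 1 and 97 of 173 in Sel1L-flox 2. The 13 nuclei of the Tcf7l2 kind held 39.2% of the Adarb2 UMIs of all members. In Gad-dominant members the change was −1.81 ± 0.72 (edgeR adjusted p = 1.00), with 0 UMIs in the 3 nuclei of Sel1L-flox 2. Over all members and without the library labelled Sel1L-flox 1, 10 genes passed, 9 of them lower, and Adarb2 (−5.12), Synpo2 (−5.11), Tcf7l2 (−3.63), Plekhg1 (−3.08) and Ntng1 (−2.88) were among them. In this fit the 8 nuclei of Sel1L-flox 2, 3 of them of the Tcf7l2 kind, were the whole control group, and their spread was assumed to be that of the Sel1L-SynCre libraries.

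No gene of the thalamic list passed in the fit of all 4 libraries. Of 16 genes 11 were tested, and 9 were lower without overlap, where 17.0% of all genes were, with a median log2 fold change of −1.59. Synpo2 stood at 38.7, 443, 10.3 and 14.7 CPM (−3.88 ± 1.08, edgeR adjusted p = 0.264) and Ntng1 at 429, 2365, 381 and 261 (−2.09 ± 0.65, edgeR adjusted p = 0.346). Sel1L-flox 2 was far above the rest for both, and the whole list summed to 1928, 5991, 1781 and 1900 CPM in members. Without Sel1L-flox 2 the fitted changes were −1.70 for Synpo2 and −0.51 for Ntng1. Foxp2, a forkhead factor, had the smallest p of the list (−1.59 ± 0.32, edgeR adjusted p = 0.111), and without Sel1L-flox 2 its fitted change was −1.805. It is also on the list of cortical and hippocampal excitatory genes. Of the 13 genes of that list 9 were tested and none was called, with 1 higher and 2 lower without overlap (median 0.06). The share of the Tcf7l2 kind among members was 4.31%, 37.5%, 1.79% and 0%, and its part in these values was not tested.

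**Figure D4:**
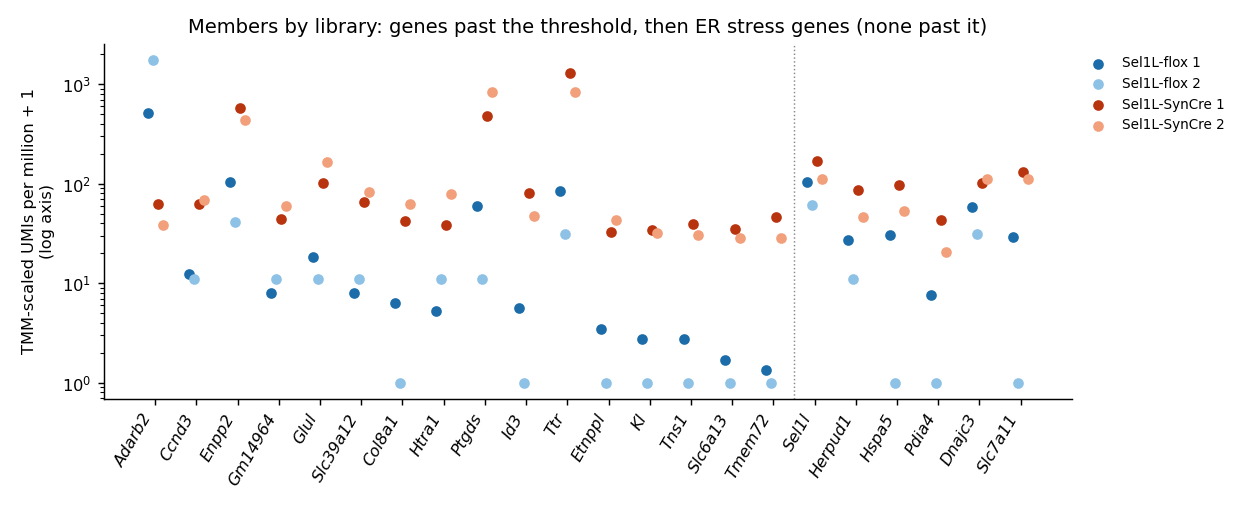
Each point is 1 library's level in Zic1/Zic4 nuclei (TMM-scaled CPM + 1, log axis), first for 16 of the 17 genes past the threshold and then for ER stress genes, none of which passed. Both Sel1L-SynCre libraries lie above both Sel1L-flox libraries for the 15 genes shown that rose and below them for Adarb2.

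For the pathway that the deletion targets, members showed no called change. Sel1l stood at 95.1, 59.1, 165.5 and 108 CPM, and its fitted change was 0.62 ± 0.32 (log2, adjusted p = 0.740 in edgeR), beside the 0.58 ± 0.12 of other neurons. Of 23 ERAD genes 22 were tested, none was called, 10 were higher and 3 lower without overlap, where 21.2% and 17.0% of all genes were, and the median was 0.28. Herpud1, the ERAD scaffold that the unfolded protein response induces, stood at 24.6, 9.85, 82.8 and 45.1 CPM (1.42 ± 0.43, edgeR adjusted p = 0.327). The ligase Syvn1, also called HRD1, had 30, 0, 10 and 15 UMIs (0.65 ± 0.55, edgeR adjusted p = 0.901). Derl3 was too low to be tested, with 1, 0, 10 and 5 UMIs. The lectins Os9 and Edem1 and the channel protein Derl1 overlapped between groups.

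No ER chaperone gene was called either. Of 25 genes of ER folding 22 were tested, none was called, 13 were higher without overlap (21.2% of all genes were) and none lower, with a median of 0.63. The chaperone Hspa5, also called BiP, stood at 27.5, 0, 93.1 and 51.9 CPM (1.53 ± 0.52, edgeR adjusted p = 0.431), and the disulfide isomerase Pdia4 at 6.23, 0, 41.4 and 19.2 (2.27 ± 0.59, edgeR adjusted p = 0.186). Dnajc3, a co-chaperone, had a difference of 1.03 ± 0.30 on the log2 scale (edgeR adjusted p = 0.294). Without the library labelled Sel1L-flox 1 the fitted differences were 2.67 ± 1.15 for Herpud1, 1.81 ± 0.49 for Dnajc3 and 1.21 ± 0.55 for Sel1l (edgeR adjusted p = 0.495, 0.416 and 0.512), set against 1, 3 and 6 UMIs in Sel1L-flox 2. Hspa5, Pdia4 and Syvn1 had 0 UMIs there, so no fold is given for them. Other neurons of the same libraries passed the threshold for Herpud1 (1.26 ± 0.13) and Hspa5 (1.34 ± 0.15, edgeR adjusted p = 0.0454 for both). The difference of members from other neurons was −0.04 ± 0.35 for Herpud1 and 0.04 ± 0.40 for Hspa5 (edgeR interaction with library as a block, adjusted p = 1 for both), so a genotype effect of another size in members was not detectable at this depth.

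No gene of the downstream stress lists passed. Of 27 ATF4 target genes 11 were tested and 7 were higher without overlap (median 0.67). The cystine transporter Slc7a11 was nearest to the threshold, at 25.9, 0, 128 and 108 CPM (2.32 ± 0.46, edgeR adjusted p = 0.0955). It stood at 557 and 384 CPM in the Ttr kind of the Sel1L-SynCre libraries and at 37.0 and 31.4 in their Gad-dominant members. Gad-dominant members held 15, 0, 19 and 17 UMIs of it. Their fitted change was 2.40 ± 0.47 (log2, edgeR adjusted p = 0.9997). It rests on few nuclei, since the UMIs lay in 4, 0, 6 and 2 of them. The highest nucleus held 73.3% in the library labelled Sel1L-flox 1, 42.1% in Sel1L-SynCre 1 and 70.6% in Sel1L-SynCre 2. Sensors and factors of the unfolded protein response (11 of 17 tested) had a median of 0.33 with 3 higher without overlap, translocon and glycosylation genes (21 of 23) 0.44 with 11, ER to Golgi transport (19 of 23) 0.12 with 4, aminoacyl-tRNA synthetases (17 of 21) 0.24 with 5, and the proteasome (25 of 25) 0.03 with 5. Serine and folate enzymes (10 of 19) had a median of 0.11 with 3 higher and 2 lower without overlap, and Aldh1l2, a mitochondrial folate enzyme, was at 1.44 ± 0.49 (edgeR adjusted p = 0.402). Lower without overlap were 1 of the sensors and factors, 1 of the synthetases, 3 of the proteasome and 0 of the translocon and transport genes. These medians are to be read beside 0.02 for all genes, and the counts beside 21.2% of all genes higher and 17.0% lower without overlap. The share of higher genes was near 21.2% for ER to Golgi transport and the proteasome. It was not far above for the sensors, the synthetases and the serine and folate enzymes.

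No gene of the receptor and excitability channel lists was called, and both lists had medians below 0. Of 26 glutamate and GABA receptor genes, all tested, 14 were lower and none higher without overlap (median −0.40, where 17.0% of all genes were lower and 21.2% higher), led by the GABA receptor subunit Gabrb2 (−0.91 ± 0.25, edgeR adjusted p = 0.242) and the AMPA receptor subunit Gria4 (−0.74 ± 0.23, edgeR adjusted p = 0.358). Of 17 excitability channels tested out of 20, 10 were lower and 1 higher without overlap (median −0.40), with the potassium channel Kcnc2 at 339, 1488, 79.5 and 167 scaled CPM (−2.81 ± 0.65, edgeR adjusted p = 0.160). The make-up of the members moved with these lists. Summed receptor levels were 23142, 23128, 19607 and 19457 CPM in all members, but 4888 and 10303 in the Ttr kind of the Sel1L-SynCre libraries, and the gate genes Snap25 and Syt1 summed to 3620, 3439, 2794 and 2854 in all members. In Gad-dominant members the receptor sums were 24408, 30675, 22500.2 and 22465. Kcnc2 stood at 2776 and 3477 CPM in the Tcf7l2 kind of the libraries labelled Sel1L-flox. The part of these kinds in the differences was not tested. Immediate early genes, which follow neuronal activity, had 8 of 17 tested and a median of 0.17, with Egr1 at 0.01.

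The Gad-dominant members gave a comparison with other GABAergic nuclei of the same mice, chosen after the data were seen. In the other Gad-dominant neurons Derl3 stood at 0.437, 0.123, 57.8 and 36.1 CPM, and in Gad-dominant members at 0.429, 0, 7.80 and 5.55, the latter from 1, 0, 4 and 3 UMIs. Both Sel1L-SynCre libraries lay above both Sel1L-flox libraries in each set. The difference of the genotype effects was −2.75 ± 1.87 (edgeR interaction, unadjusted p = 0.160, adjusted p = 1). Sel1l itself stood at 95.8, 72.8, 191 and 111 in Gad-dominant members and at 101, 98.7, 317 and 231 in the other Gad-dominant neurons (interaction −0.68 ± 0.35, edgeR unadjusted p = 0.0669, adjusted p = 1).
Herpud1 stood at 25.3, 24.2, 83.8 and 40.7 CPM against 27.7, 35.2, 133 and 100.4 in the same order (interaction −0.73 ± 0.41, edgeR unadjusted p = 0.0875, adjusted p = 1). Hspa5 stood at 28.8, 0, 89.7 and 46.2 against 23.1, 29.0, 150.4 and 94.9 (interaction −1.02 ± 0.44, edgeR unadjusted p = 0.0332, adjusted p = 1). For all 4 genes the Sel1L-SynCre values of members lay below those of the other Gad-dominant neurons, and none of the differences passed the adjusted threshold. Cre had 15, 0, 1 and 2 UMIs in Gad-dominant members, or 6.44, 0, 1.95 and 3.70 CPM, against 15.6, 0, 13.9 and 14.1 in the other Gad-dominant neurons. How many members had recombined the gene was not tested.

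**Figure D5:**
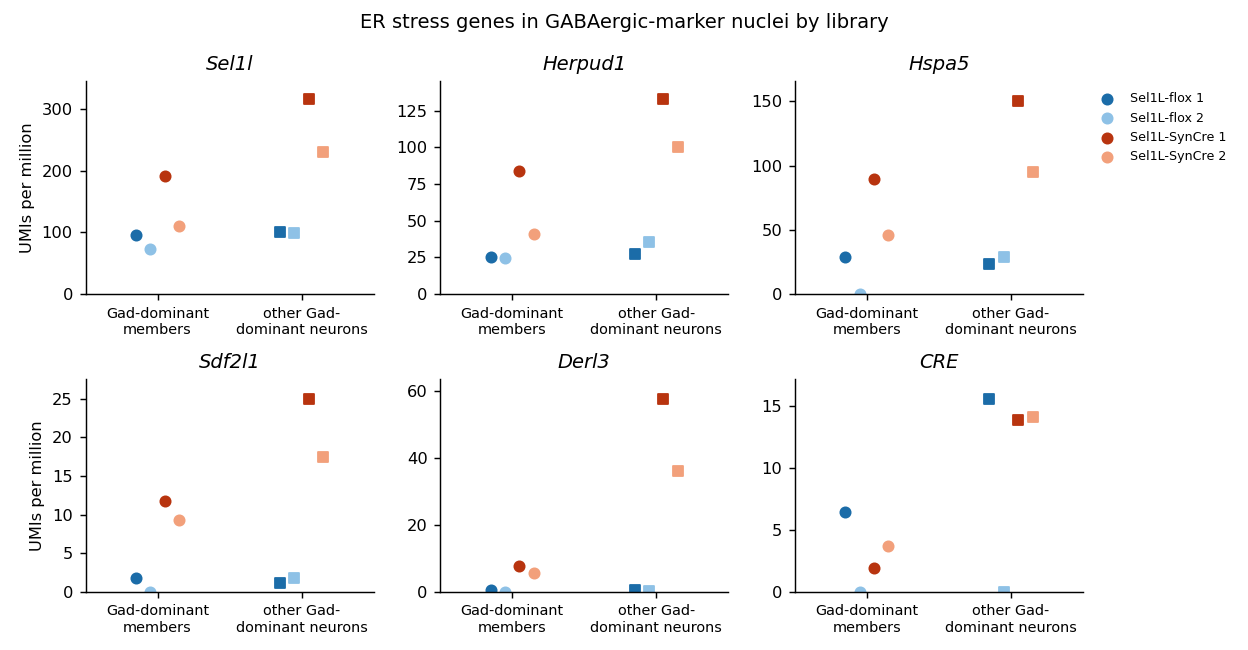
Each of 6 panels plots the level of an ER stress gene or of Cre (CPM, linear axis from 0) in Gad-dominant Zic1/Zic4 nuclei and in the other Gad-dominant neurons, 1 point per library. The Sel1L-SynCre points reach 57.8 for Derl3 and 317 for Sel1l in the other neurons and 7.80 and 191 in the Zic1/Zic4 nuclei.

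A direct test of the difference between members and all other neurons called 22 of 20052 genes (0.110%), 20 with a higher and 2 with a lower genotype difference in members (edgeR quasi-likelihood interaction with library as a block, 1378 with an unadjusted p under 0.05). Ttr led with 3.24 ± 0.28 (adjusted p = 0.00114), and Apod, a lipid carrier of glia and meninges, followed at 3.61 ± 0.47 (edgeR adjusted p = 0.0133) with 33, 0, 39 and 86 UMIs in members. Ebf2, a factor of meningeal and other mesenchymal cells, had the largest difference at 5.13 ± 0.75 (edgeR adjusted p = 0.0243). The 2 lower genes were Adarb2 (−4.15 ± 0.48) and the non-coding Gm32647 (−2.79 ± 0.38). No ERAD or chaperone gene was among the 22. Among Gad-dominant nuclei only Ttr passed this test (4.29 ± 0.39, edgeR adjusted p = 2.92e-05), which rests on the single high nucleus in each Sel1L-SynCre library.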

How the data were processed

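The authors made 4 libraries with the 10x Genomics 3′ chemistry and deposited raw UMI counts of 32286 features, an added Cre sequence included, for the barcodes that passed as nuclei. The submitters' processing notes name Cell Ranger 6.1.0 and GRCm38, and counting of introns and of strand is not given in the sources used here. Library totals ranged from 74082610 to 122870443 UMIs. Gene positions came from GENCODE vM21 (32158 of 32286 features matched) and promoters from RefSeq.

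From the deposited counts, nuclei were filtered and gated as stated, in Python 3.11.15 with scanpy 1.11.5 and scipy 1.17.1, and no doublets were removed in the main comparison. Scrublet marked the nuclei with the highest scores as doublets, at a rate of 0.8% per 1000 barcodes. Leiden clustering used 2000 variable genes, 30 components, 20 neighbours and resolution 1. Counts of members were summed per library and compared with edgeR 4.0.16 (R 4.3.3, TMM, filterByExpr, quasi-likelihood F test, two-sided, Benjamini-Hochberg threshold 0.05) without a replicate block. Interactions used library as a block. Shares were compared by exact permutation of the 4 libraries (6 arrangements). In the main comparison p-values measure the spread between 2 mice a genotype, which also differ in sex. For interactions they measure the spread, between the same mice, of the difference of members from other neurons. Where a library was left out, its genotype had a single mouse, and the spread came from the other genotype. The edgeR fit was tested on simulated data. Intervals cover counting error only.

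The members, gene lists and tests were chosen with earlier results of these data known. Named are the rule and gate genes, Sel1l, Cre, ERAD genes, the genes past the threshold with the largest changes and no overlap, up to 4 genes of lists with a called member and up to 3 of the others, the largest interactions and the 15 leading genes. Other genes named were chosen after their values were seen, as were the kinds of member. Alternatives were DESeq2 1.42.0, RLE factors, the earlier quasi-likelihood method, other filters on counts, doublets left out, stricter gates, thinning, equal nuclei, a replicate block and each library left out. A few genes are left out of the text and figures, though they stay in counts of genes.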

Additional observations from a re-analysis of the deposited data

Results flagged for a closer look

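The genotype difference in Zic1/Zic4 nuclei was unlike that in the other neurons of the same 4 mice for 10 of the genes past the threshold in members, by a test of the difference itself (edgeR quasi-likelihood interaction with library as a block, Benjamini-Hochberg over 20052 genes). It was higher in members for Ttr by 3.24 on the log2 scale, Kl by 4.08, Tns1 by 3.95, Id3 by 3.29, Ptgds by 3.24, Col8a1 by 2.92, Slc39a12 by 2.86, Glul by 2.66 and Enpp2 by 2.52, and for Adarb2 the difference was −4.15. For these 10 genes adjusted p ranged from 0.00114 (Ttr) to 0.0243 (Tns1). Of their member UMIs, the 18 member nuclei with at least 5 UMIs of Ttr, Folr1 and Kl held between 58.8% (Ptgds) and 91.5% (Ttr) for the 9 higher genes and 1.29% for Adarb2. The part of these nuclei in the differences was not tested. Without the library labelled Sel1L-flox 1, 1 gene passed the interaction test (957 with an unadjusted p under 0.05), and without any other library 0 genes passed in edgeR (1485, 798 and 512 with an unadjusted p under 0.05).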

How the results depend on the processing

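Against 17 genes called in members, DESeq2 called 22 (14 higher and 8 lower, with 9 of the 17 among them) and RLE factors 17. The earlier quasi-likelihood method called 120, no filter on low counts 104 and an equal number of nuclei per library 7. Gad-dominant members, a set chosen after the data were seen, gave 1, and 8 of the 17 were tested there but missed the threshold. Among these the log2 changes were 2.60 (Glul), 2.80 (Ptgds), 3.65 (Htra1), 4.33 (Col8a1), 2.09 (Enpp2) and 2.03 (Ccnd3). The 18 member nuclei with at least 5 UMIs of Ttr, Folr1 and Kl held 33.3% (Ccnd3) to 86.0% (Col8a1) of the member UMIs of these genes. Of the 18, 2 were Gad-dominant, 1 in each Sel1L-SynCre library. Their part in the changes of Gad-dominant members was not tested. Adarb2 was at −1.81 in Gad-dominant members, a smaller change than over all members. edgeR called 0 with 10 counts required in every library (139 at an unadjusted p under 0.05), without doublets (334), with 4 rule genes (176), in the main cluster (239) and with thinned totals (137). Leaving out 1 library gave 0 to 90 genes. Gad-dominant members gave 24 without the library labelled Sel1L-flox 1 and 34 without Sel1L-flox 2, and the main cluster 23 (21 lower) without Sel1L-flox 2, all settings chosen after the data were seen. With the replicate number as a block 0 genes passed in edgeR (669 unadjusted). The numbers coincide with sex (1 male, 2 female, by Xist and Ddx3y), and same-numbered libraries correlated at 0.0355 in their deviations over members and 0.149 over all nuclei, with only 2 pairs, so the block is also one for sex, and the labels used here give no other pairing.

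The 22 interaction genes became 5 in the main cluster, 5 with 4 rule genes, 0 with 10 counts in every sum (113 unadjusted), 1 among Gad-dominant nuclei, and 0 to 1 without a library. Called genes of the ER stress and ATF4 lists went from 0 to 1, Slc7a11, with the earlier method, no filter, equal nuclei, or without Sel1L-flox 2 (range 0 to 1). The 3 called genes of the astrocyte and choroid plexus lists became 6 with the earlier method and with no filter, 1 in Gad-dominant members with or without the library labelled Sel1L-flox 1, and 0 with 10 counts, without doublets, with 4 rule genes, in the main cluster with or without Sel1L-flox 2, with thinned totals, equal nuclei or the block, and 0 to 7 without a library.

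Without a library the difference in shares ranged from −1.50 to 0.737 percentage points, and without the library labelled Sel1L-flox 1 it reversed to 0.737. Enpp2 reversed to −0.0347 with 4 rule genes, and the cause was not tested. Adarb2 came to 6.63 in Gad-dominant members without the library labelled Sel1L-flox 1, where the 3 control nuclei left had 0 UMIs, so that value is no measure of size. A fit of Slc17a6-dominant members was not run because Sel1L-SynCre 2 held none. The 8 members of Sel1L-flox 2 limit every comparison.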

Other observations

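Sel1L-flox 2 held 145 of the 838 nuclei of the cluster in which most members lie, and 6 of these (4.14%) met the rule. The rule was met by 173 of 363 (47.7%) in the library labelled Sel1L-flox 1, 39 of 208 (18.8%) in Sel1L-SynCre 1 and 34 of 122 (27.9%) in Sel1L-SynCre 2. These cluster counts are to be read beside 8834, 6009, 5998 and 5954 neuron-gated nuclei. In that cluster 328 of 828 neuron-gated nuclei had none of the 6 rule genes.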
